A study of Homo sapiens with 18 samples.

Results

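Bone morphogenetic protein (BMP) signalling was described through 10 genes, 4 BMP ligands (BMP2, BMP4, BMP6 and BMP7) and 6 genes reported as direct targets of the pathway (ID1, ID2, ID3, SMAD6, SMAD9 and ATOH8). They were taken by symbol from the 58735 genes of the deposited count table, and all 10 were among the 17409 genes that passed the filter on low counts. They were chosen on the change between 0 h and 24 h, in which BMP6 was lower and the ID genes, SMAD6 and ATOH8 were higher, so their 24 h values are given as a description without a test. The libraries came from HaCaT, an immortal line of human skin keratinocytes, and TIGK, a telomerase-immortalised line of human gingival (gum) keratinocytes. Each line was sampled without a scratch (0 h) and at 6 h and 24 h after a scratch wound, with 3 libraries, named A, B and C, in each of the 6 groups. The study asked which expression differences go with the better healing of oral keratinocytes. Each line stands for one cell source, and the groups hold no unscratched culture kept for 6 h or 24 h, so the scratch and time in culture cannot be told apart.

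BMPs are secreted ligands that assemble receptor kinases at the cell surface. The activated receptors phosphorylate SMAD1, SMAD5 and SMAD9, which join SMAD4 and switch on target genes in the nucleus. Among the targets, the ID proteins lack a DNA-binding region and hold E proteins, a group of transcription factors, away from DNA, and SMAD6 inhibits the pathway that induces it. In the epidermis BMP signalling is known for its part in keratinocyte proliferation and differentiation, and in mouse skin Bmp6 is known as a ligand of the suprabasal layers.

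The libraries held 14238090 to 25011331 counted reads. In TIGK, library C stood apart at 0 h and at 6 h from the other 16, with 26246 and 25161 genes with a count, against 21164 to 22799. All 9 keratinocyte markers examined averaged at least 1 CPM (read counts scaled to a common library size) in every group. Their summed level was 41097 to 44794 CPM across HaCaT libraries and 33388 to 43602 CPM across TIGK libraries. The 6 fibroblast markers summed to 37.7 to 40.8 CPM at 24 h and 24.9 to 29.1 CPM at 0 h in HaCaT, and to 391 to 435 CPM at 24 h and 236 to 274 CPM at 0 h in TIGK. Of these, DCN averaged 230.4 ± 23.6 CPM at 24 h and 100.4 ± 19.8 CPM at 0 h in TIGK (SD, n = 3 each), while COL1A2 was at 0 in HaCaT at 0 h and in TIGK at 24 h. The 5 endothelial markers summed to 6.80 to 8.15 CPM at 24 h and 2.72 to 3.27 CPM at 0 h in HaCaT, and to 5.40 to 6.86 CPM at 24 h and 2.08 to 3.99 CPM at 0 h in TIGK. VWF averaged 7.47 ± 1.03 CPM at 24 h and 2.95 ± 0.241 CPM at 0 h in HaCaT (SD, n = 3 each). KDR averaged 4.53 ± 0.733 CPM at 24 h and 1.12 ± 0.284 CPM at 0 h in TIGK (SD, n = 3 each), and CDH5 was at 0 at 24 h in both lines. The 5 melanocyte markers summed to 7.75 to 9.20 CPM at 24 h and 4.68 to 5.39 CPM at 0 h in HaCaT, and to 21.0 to 27.7 CPM at 24 h and 13.0 to 15.4 CPM at 0 h in TIGK. MITF averaged 4.45 ± 0.292 CPM at 24 h and 2.02 ± 0.495 CPM at 0 h in HaCaT (SD, n = 3 each). In TIGK it averaged 20.0 ± 3.32 CPM at 24 h and 11.2 ± 0.940 CPM at 0 h (SD, n = 3 each), and TYR was at 0 throughout. The 5 immune markers summed to 3.05 to 4.57 CPM at 24 h and 0.749 to 1.11 CPM at 0 h in HaCaT, and to 0.522 to 0.957 CPM at 24 h and 0.454 to 0.519 CPM at 0 h in TIGK. In HaCaT ITGAM averaged 3.08 ± 0.689 CPM at 24 h and 0.629 ± 0.135 CPM at 0 h (SD, n = 3 each). The part of these markers in the changes below was not tested.

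BMP6 (ENSG00000153162, chr6:7726797-7881422, hg38, plus strand), a ligand that signals through activin-type and BMP-type receptors, had the lowest 24 h values relative to 0 h of the 10 genes. In HaCaT it stood at 11.7, 8.61 and 12.0 CPM in libraries A, B and C at 0 h, at 20.8, 20.6 and 19.7 CPM at 6 h, and at 1.02, 0.750 and 0.848 CPM at 24 h. In TIGK it stood at 13.6, 14.2 and 8.40 CPM at 0 h, at 10.6, 9.46 and 8.68 CPM at 6 h, and at 1.05, 0.980 and 0.752 CPM at 24 h. All 6 libraries of 24 h lay far below all 12 earlier libraries, and at 24 h the lines overlapped. These low values rested on 11 to 16 reads per library. In bulk libraries such as these, fewer cells with the RNA and less RNA per cell cannot be told apart. The fitted level at 24 h was 12.2-fold lower than at 0 h in HaCaT (log2 -3.61, SE 0.25) and 12.8-fold lower in TIGK (log2 -3.68, SE 0.24). Against the 6 h libraries it was 23.1-fold lower in HaCaT and 10.2-fold lower in TIGK.

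The lines differed in BMP6 at 6 h. BMP6 rose in HaCaT, to 20.4 ± 0.558 CPM at 6 h against 10.8 ± 1.88 CPM at 0 h (SD, n = 3 each; 1.89-fold, log2 0.92, SE 0.18, adjusted p = 0.026, edgeR), and the 3 libraries of 6 h lay above the 3 of 0 h. In TIGK it averaged 9.60 ± 0.990 CPM at 6 h and 12.1 ± 3.20 CPM at 0 h (SD, n = 3 each; log2 -0.32, SE 0.18), with overlapping libraries, and did not pass the test (adjusted p = 0.45, edgeR). The difference between the responses, tested as an interaction, was 2.37-fold toward HaCaT (log2 1.24, SE 0.25, adjusted p = 0.016, edgeR). The rise in HaCaT lost its call without HaCaT 0 h A, HaCaT 0 h B, HaCaT 6 h A, HaCaT 6 h B or HaCaT 6 h C (adjusted p = 0.11, 0.18, 0.12, 0.087 and 0.088, edgeR), with a log2 change of 0.78 to 0.98 in these fits. The interaction lost its call without TIGK 0 h B (log2 1.11, adjusted p = 0.059, edgeR).

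BMP2 (ENSG00000125845, chr20:6767664-6780280, plus strand), a ligand that binds BMP type I receptors with high affinity, was the one of the 4 ligands with the widest difference between the lines. Its HaCaT levels were 58.2, 56.4 and 53.5 CPM at 0 h, 50.7, 48.2 and 44.8 CPM at 6 h, and 215, 204 and 228 CPM at 24 h. Its TIGK levels were 13.5, 9.52 and 9.46 CPM at 0 h, 10.5, 6.83 and 6.88 CPM at 6 h, and 14.4, 15.5 and 9.78 CPM at 24 h. All HaCaT libraries exceeded all TIGK libraries at each time, and the 24 h libraries of HaCaT stood well above its others, while those of TIGK overlapped its 0 h libraries. At 24 h the fitted level was 3.84-fold higher than at 0 h in HaCaT (log2 1.94, SE 0.13) and 1.24-fold higher in TIGK (log2 0.30, SE 0.16). HaCaT exceeded TIGK by 5.21-fold at 0 h (log2 2.38, SE 0.15, adjusted p = 8.0e-13, edgeR), by 5.97-fold at 6 h (log2 2.58, SE 0.16, adjusted p = 4.8e-13, edgeR) and, untested, by 16.2-fold at 24 h.

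BMP7 (ENSG00000101144, chr20:57168748-57266629, minus strand), a ligand of the same subgroup as BMP6, was the one of the 4 with lower levels in HaCaT at all 3 times. HaCaT libraries A, B and C held 56.3, 58.4 and 59.5 CPM at 0 h, 51.0, 40.7 and 51.3 CPM at 6 h, and 69.6, 72.5 and 75.0 CPM at 24 h. TIGK libraries A, B and C held 126, 128 and 120 CPM at 0 h, 113, 108 and 102 CPM at 6 h, and 102, 90.0 and 94.9 CPM at 24 h. At 24 h every HaCaT library lay above the 0 h libraries of HaCaT and every TIGK library lay below the 0 h libraries of TIGK. The fitted changes were log2 0.32 (SE 0.085) in HaCaT and log2 -0.38 (SE 0.083) in TIGK, and their difference was not tested. BMP7 was lower in HaCaT by 2.15-fold at 0 h (log2 -1.10, SE 0.084, adjusted p = 3.6e-11, edgeR) and by 2.26-fold at 6 h (log2 -1.18, SE 0.085, adjusted p = 1.3e-11, edgeR).

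BMP4 (ENSG00000125378, chr14:53949736-53958761, minus strand), the closest relative of BMP2, was higher in HaCaT at each time. It averaged 18.5 ± 2.62 CPM at 0 h, 17.7 ± 2.48 at 6 h and 12.2 ± 0.873 at 24 h in HaCaT, and 6.09 ± 0.760, 7.05 ± 0.458 and 4.50 ± 0.921 CPM at these times in TIGK (SD, n = 3 each). The 24 h libraries lay below those of 0 h in HaCaT and overlapped them in TIGK. HaCaT exceeded TIGK by 3.03-fold at 0 h (log2 1.60, SE 0.16, adjusted p = 5.7e-09, edgeR) and by 2.51-fold at 6 h (log2 1.33, SE 0.16, adjusted p = 1.4e-07, edgeR).

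**Figure D1:**
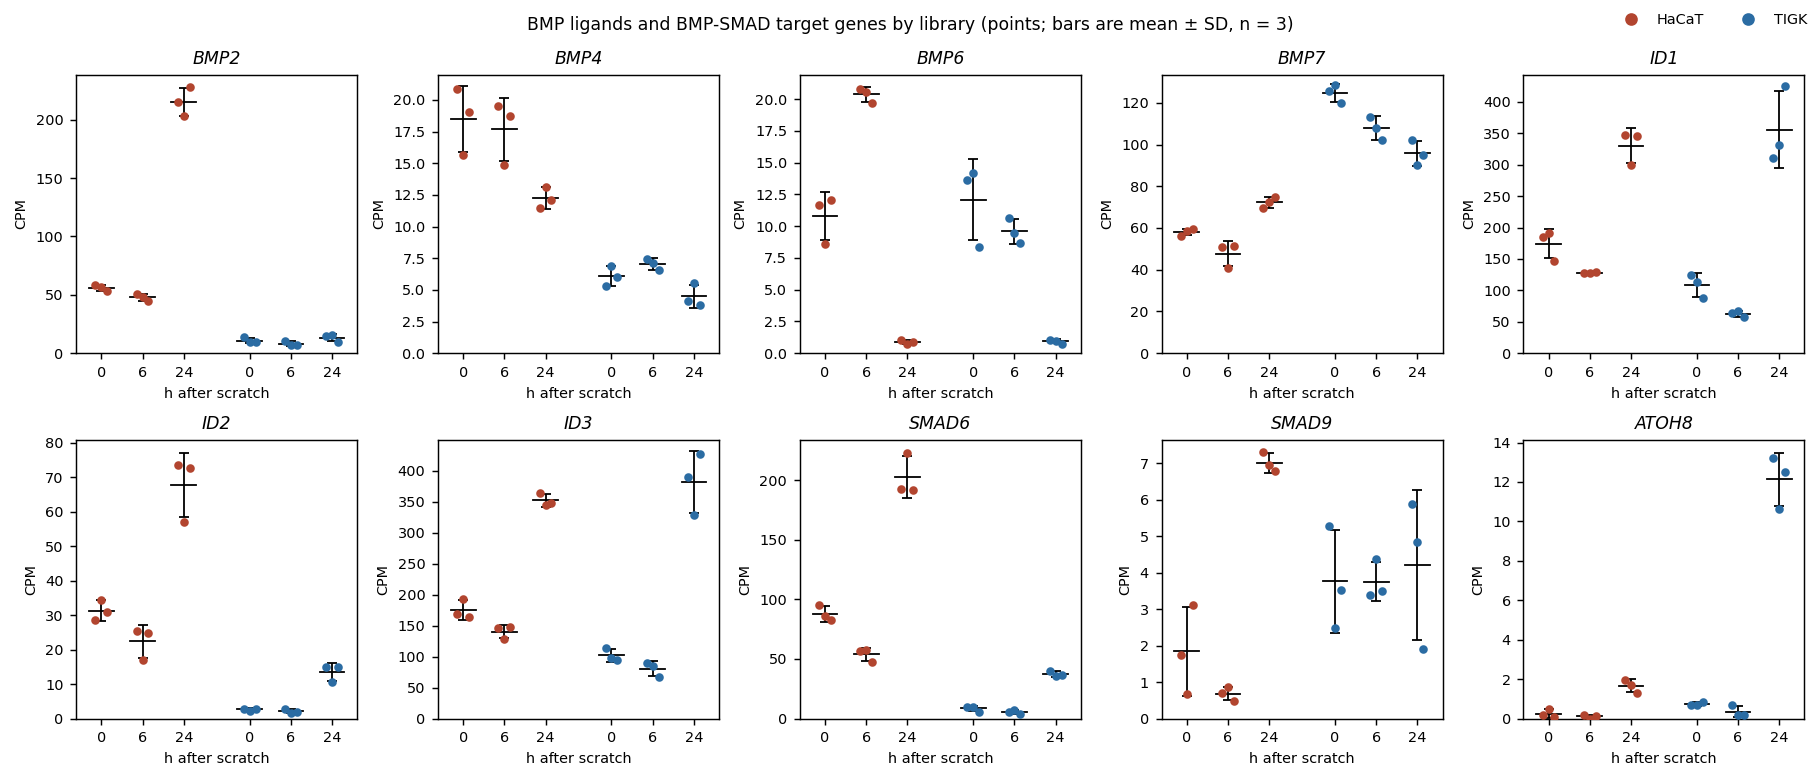
CPM (y axis, from 0) of the 10 genes in each library, by hours after the scratch (x axis), HaCaT in red on the left and TIGK in blue on the right of each panel; points are libraries and bars are the mean ± SD of 3. BMP6 lies between 0.750 and 1.05 CPM in all 6 libraries of 24 h, while ID1 and ID3 reach their highest values there in both lines.

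Per length, in FPKM (the deposited unit that divides counts by gene length and library total), the mix of the 4 ligands differed between lines and times. Their summed FPKM was 35.5 ± 1.52 at 0 h, 34.4 ± 2.04 at 6 h and 77.2 ± 3.48 at 24 h in HaCaT, and 31.8 ± 2.24, 27.6 ± 2.10 and 22.9 ± 1.49 at these times in TIGK (SD, n = 3 each). In HaCaT at 0 h BMP2 made up 43.1 ± 2.19% and BMP7 29.7 ± 1.79% of the sum. In TIGK at 0 h BMP7 made up 71.3 ± 2.77%. At 24 h BMP2 held 77.2 ± 1.11% of the sum in HaCaT and 15.8 ± 3.13% in TIGK, and BMP7 held 17.3 ± 0.639% in HaCaT and 76.4 ± 4.30% in TIGK. The share of BMP6 was 10.7 ± 1.55% at 0 h, 20.9 ± 1.29% at 6 h and 0.405 ± 0.0629% at 24 h in HaCaT, and 13.3 ± 2.73%, 12.4 ± 0.354% and 1.43 ± 0.165% at these times in TIGK. The summed FPKM of these 4 ligands was thus led by BMP2 in HaCaT and by BMP7 in TIGK at every time. BMP8B, a ligand outside this sum, stood at 4.81 ± 1.13, 4.42 ± 1.06 and 3.81 ± 0.399 FPKM in TIGK at 0 h, 6 h and 24 h. In HaCaT it stood at 0.326 ± 0.137, 0.290 ± 0.0782 and 0.308 ± 0.195 FPKM (SD, n = 3 each).

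**Figure D2:**
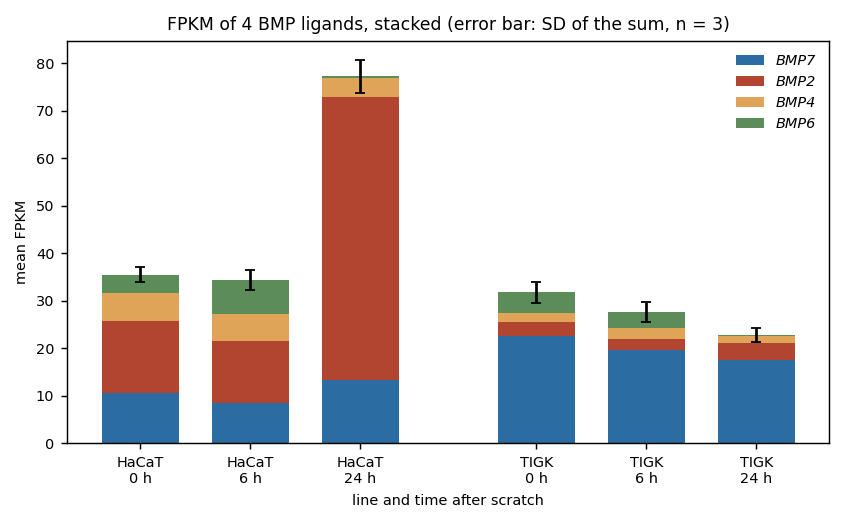
Mean FPKM of BMP7, BMP2, BMP4 and BMP6 (y axis, from 0), stacked for each line and time (x axis), HaCaT left and TIGK right; the error bar is the SD of the sum over 3 libraries. The HaCaT sum at 24 h, 77.2 FPKM, is the tallest column and consists mostly of BMP2, while BMP7 fills most of each TIGK column.

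The 6 target genes carry the response side of the pathway. For the promoters of ID1, SMAD6 and BMP6, the 250 bases before the RefSeq transcript start (GRCh38.p14) are shown because ID1 and SMAD6 were higher at 24 h in both lines and BMP6 was lower. Capitals mark matches on either strand to GGAGCC, a GC-rich sequence reported for SMAD1 and SMAD5, whose reverse complement is GGCTCC, and to GTCTAGAC, a palindrome that SMAD proteins bind. The search also covered the palindrome GGCGCC.
SMAD6, plus strand, chr15:66701986-66702235: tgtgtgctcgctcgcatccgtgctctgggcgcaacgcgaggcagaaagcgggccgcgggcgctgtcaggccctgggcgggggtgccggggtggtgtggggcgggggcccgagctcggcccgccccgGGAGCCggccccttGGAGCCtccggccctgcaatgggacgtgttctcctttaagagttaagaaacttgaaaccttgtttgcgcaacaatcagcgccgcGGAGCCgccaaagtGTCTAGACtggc
ID1, plus strand, chr20:31605039-31605288: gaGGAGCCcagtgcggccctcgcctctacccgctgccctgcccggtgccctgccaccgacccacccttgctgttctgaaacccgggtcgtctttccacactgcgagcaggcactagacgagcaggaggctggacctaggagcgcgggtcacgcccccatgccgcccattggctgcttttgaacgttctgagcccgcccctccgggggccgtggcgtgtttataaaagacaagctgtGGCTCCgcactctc
BMP6, plus strand, chr6:7725849-7726098: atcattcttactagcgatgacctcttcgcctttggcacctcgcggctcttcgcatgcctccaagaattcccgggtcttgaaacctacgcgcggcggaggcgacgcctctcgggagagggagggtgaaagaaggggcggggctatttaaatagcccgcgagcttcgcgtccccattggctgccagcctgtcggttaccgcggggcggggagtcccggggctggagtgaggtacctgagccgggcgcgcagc
The SMAD6 window held 3 matches to GGAGCC and 1 to GTCTAGAC, which lies at positions -12 to -5 from the RefSeq start. The ID1 window held 2 matches to GGAGCC, and the BMP6 window held no match to any of the 3 motifs. Of 35116 RefSeq promoter windows of this length, 30.6% held GGAGCC, 16.4% held GGCGCC and 0.182% held GTCTAGAC, and none of the motifs overlaps another in these windows. RefSeq windows were at hand for 8 of the 10 genes. GGAGCC also occurred in windows of ID3 (1 match), ATOH8 (1 match), SMAD9 (3 matches) and BMP4 (1 match), 1 of the 3 BMP4 windows held GGCGCC (1 match), and the ID2 window held none of the 3. The 3 windows printed are richer in G and C than the median of 58.0% over all windows, with 68.0% for SMAD6, 66.0% for ID1 and 64.4% for BMP6. The last 8 bases of the SMAD6 window and the last 6 of the ID1 window lie in exons annotated by GENCODE. In the other windows with some overlap, exons of the gene itself held 250 bases for ID3, so that its match lies in them, 202 for ID2, 97 for ATOH8, 34 for SMAD9, and 64 and 60 for a pair of the BMP4 windows. The BMP6 start in RefSeq lies at -698 from the gene start in the files. A match of letters is a description and not a binding site.

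ID1 (ENSG00000125968, chr20:31605283-31606515, plus strand), a partner that blocks E proteins, had the highest FPKM of the 10 genes in all 6 groups. In HaCaT it stood at 185, 192 and 147 CPM at 0 h, at 128, 127 and 129 CPM at 6 h, and at 347, 299 and 345 CPM at 24 h. In TIGK it stood at 124, 114 and 87.3 CPM at 0 h, at 63.6, 67.1 and 57.3 CPM at 6 h, and at 311, 331 and 425 CPM at 24 h. In both lines the 6 h libraries were the lowest and the 24 h libraries the highest, with no overlap between times. At 24 h the fitted level was 1.89-fold higher than at 0 h in HaCaT (log2 0.92, SE 0.12) and 3.29-fold higher in TIGK (log2 1.72, SE 0.12). ID1 fell in TIGK at 6 h, to 62.7 ± 4.95 CPM against 108 ± 19.0 CPM at 0 h (SD, n = 3 each; 1.73-fold, log2 -0.79, SE 0.12, adjusted p = 0.00020, edgeR). In HaCaT it averaged 128 ± 0.866 CPM at 6 h and 175 ± 23.7 CPM at 0 h (SD, n = 3 each; log2 -0.45, SE 0.12) and did not pass (adjusted p = 0.15, edgeR), although it passed without both TIGK C libraries (log2 -0.45, adjusted p = 0.027, edgeR). It also passed there with only the groups compared and with no filter on low counts (log2 -0.45 and -0.44, adjusted p = 0.0017 and 0.00019, edgeR). The difference between these responses did not pass either (log2 0.34, SE 0.17, adjusted p = 0.50, edgeR).

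ID3 (ENSG00000117318, chr1:23557918-23559794, minus strand), of the same function, ran close to ID1. It averaged 175 ± 15.9 CPM at 0 h, 140.3 ± 10.2 at 6 h and 353 ± 10.5 at 24 h in HaCaT, and 102 ± 10.5, 80.4 ± 12.6 and 382 ± 49.5 CPM at these times in TIGK (SD, n = 3 each). At 24 h it was 2.01-fold higher than at 0 h in HaCaT (log2 1.01, SE 0.11) and 3.74-fold higher in TIGK (log2 1.90, SE 0.11), with no overlap of libraries. At 6 h ID3 did not pass in HaCaT or TIGK (log2 -0.32 and -0.35, adjusted p = 0.35 and 0.082, edgeR). It passed with no filter on low counts in both (adjusted p = 0.049 and 0.0030, edgeR). It also passed in HaCaT with only the groups compared (adjusted p = 0.015, edgeR) and in TIGK with DESeq2 (adjusted p = 0.046, DESeq2). As described by the root mean square difference of log2 CPM over the 18 libraries, each gene centred on its mean, ID1 and ID3 were each the nearest of 13931 genes to the other, at 0.178. These libraries include those of 24 h, on which both genes were chosen.

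ID2 (ENSG00000115738, chr2:8678845-8684453, plus strand), the third ID gene, was far higher in HaCaT than in TIGK. The HaCaT libraries stood at 28.4, 34.4 and 31.0 CPM at 0 h, at 25.3, 16.9 and 24.9 CPM at 6 h, and at 73.6, 57.0 and 72.5 CPM at 24 h. The TIGK libraries stood at 2.77, 2.31 and 2.87 CPM at 0 h, at 2.79, 1.63 and 2.02 CPM at 6 h, and at 15.1, 10.6 and 14.9 CPM at 24 h. Every HaCaT library exceeded every TIGK library, and in each line the 24 h libraries were the highest. HaCaT exceeded TIGK by 11.7-fold at 0 h (log2 3.55, SE 0.19, adjusted p = 4.4e-14, edgeR) and by 10.4-fold at 6 h (log2 3.38, SE 0.20, adjusted p = 4.0e-13, edgeR). At 24 h ID2 was 2.17-fold higher than at 0 h in HaCaT (log2 1.12, SE 0.15) and 5.05-fold higher in TIGK (log2 2.34, SE 0.20). It made up 5.62 ± 0.614% of the summed ID1, ID2 and ID3 FPKM in HaCaT at 0 h and 0.837 ± 0.180% in TIGK (SD, n = 3 each). At 24 h this summed FPKM was 493 ± 29.9 in HaCaT and 502 ± 69.8 in TIGK. The exons of ID2 overlap those of the antisense gene ID2-AS1, which held 89 reads over all libraries against 6563 for ID2, and strand use in counting is not given in the sources used here.

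SMAD6 (ENSG00000137834, chr15:66702228-66782848, plus strand), an inhibitory SMAD, was likewise higher in HaCaT throughout. In HaCaT it stood at 95.3, 86.2 and 82.3 CPM at 0 h, at 56.5, 57.4 and 47.7 CPM at 6 h, and at 193, 223 and 192 CPM at 24 h. In TIGK it stood at 9.89, 9.69 and 5.90 CPM at 0 h, at 5.72, 7.08 and 3.93 CPM at 6 h, and at 40.3, 35.5 and 36.4 CPM at 24 h. The lines did not overlap at any time, and within each line the 24 h libraries were the highest. HaCaT exceeded TIGK by 10.6-fold at 0 h (log2 3.40, SE 0.16, adjusted p = 2.3e-15, edgeR) and by 9.73-fold at 6 h (log2 3.28, SE 0.17, adjusted p = 1.7e-14, edgeR). At 24 h SMAD6 was 2.30-fold higher than at 0 h in HaCaT (log2 1.20, SE 0.13) and 4.50-fold higher in TIGK (log2 2.17, SE 0.16). Leaving out both C libraries named above, the TIGK value was log2 1.93. ID2 and SMAD6 were each the nearest of 13931 genes to the other over the 18 libraries, at a root mean square difference of 0.364. Here too the libraries include those of 24 h, on which both genes were chosen.

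At 6 h SMAD6 fell in HaCaT, to 53.9 ± 5.34 CPM against 87.9 ± 6.64 CPM at 0 h (SD, n = 3 each; 1.63-fold, log2 -0.71, SE 0.14, adjusted p = 0.023, edgeR), and the libraries of the times did not overlap. The call was lost without HaCaT 0 h A, HaCaT 0 h B, HaCaT 6 h A, HaCaT 6 h B or HaCaT 6 h C (adjusted p = 0.19, 0.10, 0.089, 0.054 and 0.23, edgeR), with a log2 change of -0.75 to -0.63 in these fits. In TIGK it averaged 5.58 ± 1.58 CPM at 6 h and 8.50 ± 2.25 CPM at 0 h (SD, n = 3 each; log2 -0.59, SE 0.19) and did not pass (adjusted p = 0.089, edgeR). Without TIGK 0 h C or TIGK 6 h B it passed there (log2 -0.82 and -0.80, adjusted p = 0.0050 and 0.035, edgeR), as it did without both C libraries (log2 -0.61, adjusted p = 0.029, edgeR). With all libraries kept, it passed in TIGK with DESeq2 (log2 -0.59, adjusted p = 0.017, DESeq2) and with no filter on low counts (log2 -0.60, adjusted p = 0.0010, edgeR). The difference between the responses did not pass (log2 -0.12, SE 0.23, adjusted p = 0.92, edgeR).

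SMAD9 (ENSG00000120693, chr13:36844831-36920765, minus strand) encodes a SMAD that BMP receptors phosphorylate. HaCaT cells held 1.73, 0.681 and 3.12 CPM at 0 h, 0.699, 0.856 and 0.487 CPM at 6 h, and 7.31, 6.96 and 6.78 CPM at 24 h. TIGK cells held 5.29, 2.48 and 3.52 CPM at 0 h, 3.39, 4.39 and 3.49 CPM at 6 h, and 5.89, 4.83 and 1.91 CPM at 24 h. The 24 h libraries of HaCaT were above all others of that line, and those of TIGK spread over its range at 0 h. SMAD9 was 3.80-fold higher at 24 h than at 0 h in HaCaT (log2 1.92, SE 0.39) and 1.13-fold higher in TIGK (log2 0.17, SE 0.37). The HaCaT value was log2 2.53 without HaCaT 0 h C and 0.77 with limma on log2(FPKM + 1). HaCaT was lower than TIGK at 0 h (2.03-fold, log2 -1.02, SE 0.40, adjusted p = 0.029, edgeR) with overlapping libraries, and at 6 h (5.47-fold, log2 -2.45, SE 0.46, adjusted p = 5.4e-05, edgeR). At 24 h, untested, every HaCaT library lay above the TIGK libraries (log2 0.73, SE 0.36). The 0 h call was lost without TIGK 0 h A, HaCaT 0 h A or HaCaT 0 h B (log2 -0.72, -0.98 and -0.62, adjusted p = 0.16, 0.072 and 0.17, edgeR).

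ATOH8 (ENSG00000168874, chr2:85751344-85788066, plus strand), a basic helix-loop-helix transcription factor, was the one of the 10 genes with the fewest reads over the 18 libraries. In HaCaT it had 3, 8 and 1 reads at 0 h, 3, 0 and 2 reads at 6 h, and 31, 25 and 20 reads at 24 h. In TIGK it had 11, 12 and 22 reads at 0 h, 10, 3 and 3 reads at 6 h, and 202, 163 and 183 reads at 24 h. In both lines the 24 h libraries stood clear of the earlier ones. The mean level was 1.66 ± 0.335 CPM at 24 h and 0.250 ± 0.222 CPM at 0 h in HaCaT, 6.45-fold higher (log2 2.69, SE 0.52), or log2 3.64 without HaCaT 0 h B (SD, n = 3 each). In TIGK it was 12.1 ± 1.33 CPM at 24 h and 0.733 ± 0.0858 CPM at 0 h, 16.2-fold higher (log2 4.02, SE 0.40; SD, n = 3 each). With limma on log2(FPKM + 0.1) the 24 h change was 1.43 in HaCaT and 3.24 in TIGK. With limma on log2(FPKM + 1) it was 0.29 in HaCaT and 1.41 in TIGK. At 0 h HaCaT was 2.90-fold lower than TIGK (log2 -1.54, SE 0.56, adjusted p = 0.020, edgeR), a call lost without TIGK 0 h C, HaCaT 0 h A or HaCaT 0 h C (log2 -1.42, -1.39 and -1.08, adjusted p = 0.058, 0.065 and 0.11, edgeR). That call was also lost without the TIGK C libraries of 0 h and 6 h (log2 -1.42, adjusted p = 0.0504, edgeR) and with limma on log2(FPKM + 1) (log2 -0.11, adjusted p = 0.13, limma). At 6 h the difference did not pass (log2 -1.60, SE 0.77, adjusted p = 0.076, edgeR), but it passed without TIGK 6 h C or HaCaT 6 h A (log2 -1.95 and -2.29, adjusted p = 0.038 and 0.048, edgeR).

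**Figure D3:**
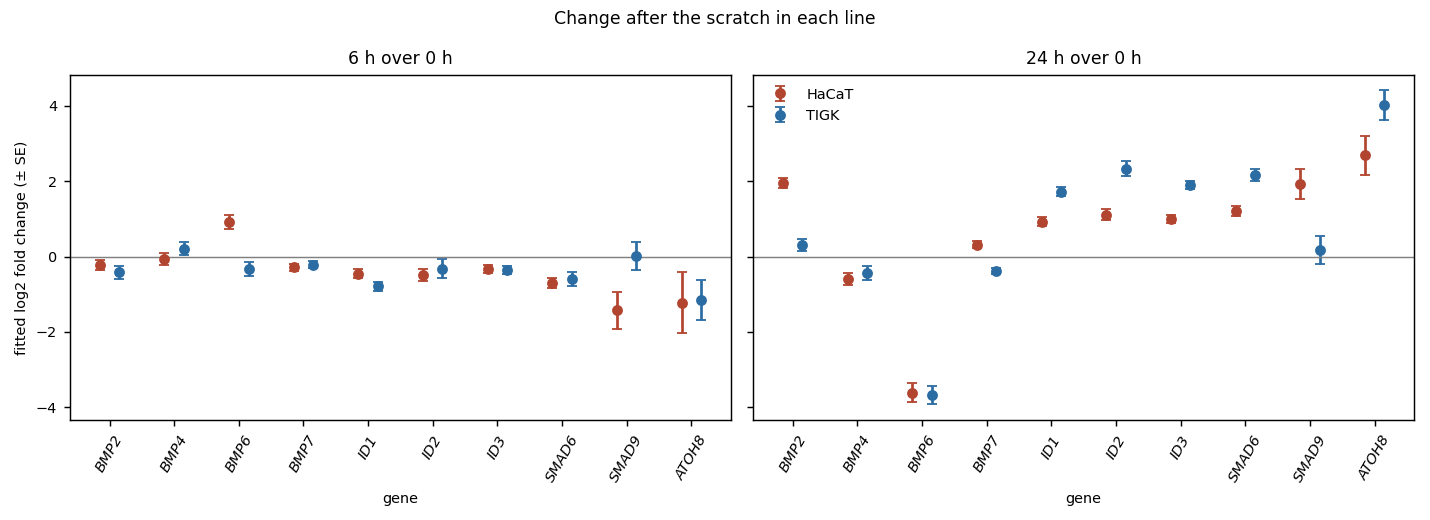
Fitted log2 fold change (y axis, ± SE) of each gene (x axis) at 6 h over 0 h on the left and at 24 h over 0 h on the right, HaCaT in red and TIGK in blue. At 24 h BMP6 lies at -3.61 in HaCaT and -3.68 in TIGK, ATOH8 is the highest point in both lines, and BMP2 and SMAD9 lie near 2 in HaCaT and near 0 in TIGK.

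As a set, the 10 genes at 24 h over 0 h had a median log2 fold change of 1.06 in HaCaT and 1.01 in TIGK, where the medians over all 17409 genes were 0.0036 and -0.012. In HaCaT 8 of 10 fitted values were positive and in TIGK 7 of 10. These figures repeat what the genes were chosen for. The 6 h change shares its 0 h libraries with the 24 h change. At 6 h over 0 h, 1 of the 10 genes rose in HaCaT (BMP6) and 1 fell (SMAD6), where 0.138% of all genes tested were called higher and 0.0632% lower. In TIGK ID1 alone was called, 1 gene lower, where 2.5% of all genes were called higher and 1.12% lower. The medians of the 10 genes at 6 h were -0.39 in HaCaT and -0.33 in TIGK, against 0 and -0.018 over all genes, and 9 of 10 fitted values were negative in HaCaT and 8 of 10 in TIGK. In the interaction 1 of the 10 genes was called toward HaCaT (BMP6) and 0 toward TIGK, where 0.218% and 0.534% of all genes were called in these directions.

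Between the lines at 0 h, 6 of the 10 genes were higher in HaCaT (BMP2, BMP4, ID1, ID2, ID3 and SMAD6), 3 were lower (BMP7, SMAD9 and ATOH8), and BMP6 did not pass (log2 -0.16, SE 0.18, adjusted p = 0.47, edgeR). Of all genes 29.3% were called higher and 33.3% lower. At 6 h 7 were higher, the same 6 genes and BMP6 (2.12-fold, log2 1.09, SE 0.18, adjusted p = 1.1e-05, edgeR), and 2 were lower (BMP7 and SMAD9), where 29.8% of all genes were called higher and 32.8% lower. ID1 was higher in HaCaT by 1.61-fold at 0 h (adjusted p = 2.3e-05, edgeR) and by 2.04-fold at 6 h (adjusted p = 9.6e-08, edgeR). ID3 was higher by 1.72-fold at 0 h (adjusted p = 7.0e-07, edgeR) and by 1.75-fold at 6 h (adjusted p = 5.5e-07, edgeR). At 24 h, untested, the fitted log2 difference of HaCaT over TIGK was -0.11 for ID1, -0.12 for ID3 and -0.086 for BMP6, with overlapping libraries, while it was 4.02 for BMP2, 2.44 for SMAD6, 2.33 for ID2 and -2.86 for ATOH8, without overlap. Also without overlap, it was 1.44 for BMP4, 0.73 for SMAD9 and -0.40 for BMP7.

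**Figure D4:**
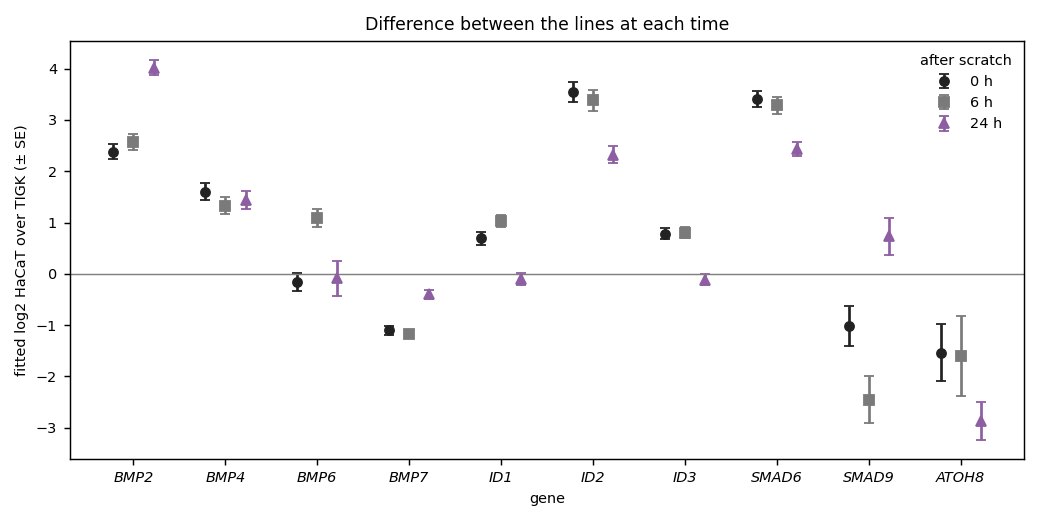
Fitted log2 of HaCaT over TIGK (y axis, ± SE) for each gene (x axis) at 0 h (circles), 6 h (squares) and 24 h (triangles). ID1 and ID3 lie above 0 at 0 h and 6 h and at -0.11 and -0.12 at 24 h, while BMP2, ID2 and SMAD6 lie above 2 at all 3 times.

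Ranked by FPKM, ID1 came first and ID3 second in every group, and in HaCaT at 0 h, 6 h and 24 h and in TIGK at 0 h and 24 h their libraries did not overlap, while in TIGK at 6 h they did. Behind them stood BMP2 in HaCaT (15.3, 13.0 and 59.6 FPKM at 0 h, 6 h and 24 h) and BMP7 in TIGK (22.6, 19.7 and 17.5 FPKM). In HaCaT at 0 h the order went on with ID2, BMP7, SMAD6, BMP4, BMP6, SMAD9 and ATOH8, and the neighbours BMP2 and ID2, and BMP7 and SMAD6, overlapped. ATOH8 was last in 5 of the 6 groups, at 0.0168 to 0.272 FPKM in HaCaT and 0.119 and 0.0553 FPKM in TIGK at 0 h and 6 h, and in HaCaT at 24 h it overlapped BMP6. In TIGK at 24 h ATOH8 was seventh with 1.97 ± 0.223 FPKM, and BMP6 was last with 0.330 ± 0.0561 FPKM (SD, n = 3 each).

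The rest of the pathway was taken from 6 lists of 62 genes by role, of which 44 passed the filter on low counts. At 24 h over 0 h, 9 of the 44 rose and 6 fell in HaCaT, where 15.5% of all genes tested were called higher and 15.9% lower. In TIGK 14 rose and 7 fell, where 15.3% were called higher and 17% lower. The medians of the 44 genes were 0.092 in HaCaT and 0.23 in TIGK, against 0.0036 and -0.012 over all genes.

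Of 7 measured other reported BMP-SMAD targets, 4 rose in HaCaT and 0 fell, and 4 rose in TIGK and 1 fell. DLX3, a homeobox factor of epidermal differentiation, rose to 91.1 ± 4.08 CPM at 24 h against 43.9 ± 2.59 at 0 h in HaCaT (log2 1.05, adjusted p = 2.2e-08, edgeR), and to 45.3 ± 2.06 against 20.7 ± 3.19 CPM in TIGK (log2 1.14, adjusted p = 1.5e-08, edgeR; SD, n = 3 each). DLX5, its homeobox relative, rose to 22.9 ± 0.621 against 15.2 ± 2.53 CPM in HaCaT (log2 0.59, adjusted p = 0.0087, edgeR) and to 22.8 ± 2.45 against 7.46 ± 1.43 CPM in TIGK (log2 1.62, adjusted p = 1.3e-07, edgeR; SD, n = 3 each). ID4, the fourth ID gene, rose by log2 1.00 in HaCaT and 2.31 in TIGK (adjusted p = 0.0024 and 0.0027, edgeR), where TIGK held 35 reads at 24 h and 9 at 0 h over 3 libraries. MSX2, a homeobox repressor, rose by log2 0.40 in HaCaT and 0.57 in TIGK (adjusted p = 0.018 and 0.0015, edgeR). The DLX5 call in HaCaT was lost without HaCaT 0 h A (adjusted p = 0.053, edgeR), and that of MSX2 without HaCaT 0 h C or HaCaT 24 h A, and with no filter on low counts (log2 0.32, 0.39 and 0.39, adjusted p = 0.10, 0.053 and 0.12, edgeR). The TIGK call of ID4 was lost with limma on log2(FPKM + 1) (adjusted p = 0.090, limma). MSX1, named after its values were seen as the 1 gene that fell, changed by log2 -1.14 in TIGK (adjusted p = 0.0070, edgeR).

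Among 10 other SMADs and intracellular regulators, 2 rose and 1 fell in HaCaT, and 3 rose and 0 fell in TIGK. SMAD7, the other inhibitory SMAD, rose to 110.3 ± 7.60 CPM at 24 h against 56.0 ± 3.92 CPM at 0 h in HaCaT (log2 0.98, adjusted p = 1.2e-05, edgeR) and to 23.0 ± 1.95 against 9.93 ± 2.57 CPM in TIGK (log2 1.21, adjusted p = 4.8e-06, edgeR; SD, n = 3 each). SKIL, a corepressor that binds SMADs, rose by log2 0.77 in HaCaT and 1.18 in TIGK (adjusted p = 2.1e-06 and 6.2e-09, edgeR). SKI, its relative, fell in HaCaT (log2 -0.47, adjusted p = 0.010, edgeR), and SMURF1, a ubiquitin ligase that acts on SMADs, rose in TIGK (log2 0.38, adjusted p = 0.0063, edgeR). These calls were lost without HaCaT 24 h A for SKI (log2 -0.42, adjusted p = 0.052, edgeR) and without TIGK 0 h C for SMURF1 (log2 0.29, adjusted p = 0.053, edgeR). SMAD7 and SKIL are also known targets of TGF-beta signalling.

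Of 10 measured receptors and co-receptors, 2 rose and 3 fell in HaCaT, and 3 rose and 3 fell in TIGK. BMPR2, the BMP type II receptor, rose by log2 0.40 in HaCaT and 0.53 in TIGK (adjusted p = 0.025 and 0.0030, edgeR), and the HaCaT call was lost without HaCaT 0 h A, 0 h B, 24 h B or 24 h C (adjusted p = 0.061, 0.12, 0.081 and 0.064, edgeR). RGMB, a co-receptor, fell by 0.55 on the log2 scale in HaCaT and by 0.92 in TIGK (adjusted p = 0.043 and 0.0022, edgeR). The HaCaT call of RGMB was lost in 6 fits that left out 1 HaCaT library each, HaCaT 0 h A, 0 h C, 6 h C, 24 h A, 24 h B or 24 h C (adjusted p = 0.12, 0.11, 0.050, 0.071, 0.070 and 0.14, edgeR), with RLE scaling (adjusted p = 0.052, edgeR), and with limma on log2(FPKM + 0.1) and log2(FPKM + 1) (adjusted p = 0.095 and 0.050, limma). NEO1, a receptor of the RGM proteins, rose in HaCaT (log2 0.93, adjusted p = 0.00018, edgeR), and ENG, a co-receptor, fell in TIGK (log2 -0.65, adjusted p = 0.00085, edgeR). BMPR1B, a BMP type I receptor, fell in HaCaT (log2 -1.56, adjusted p = 0.011, edgeR), a call lost without HaCaT 0 h C or HaCaT 24 h A (log2 -1.19 and -1.17, adjusted p = 0.088 and 0.075, edgeR). RGMA, a co-receptor, fell in TIGK (log2 -0.62, adjusted p = 0.014, edgeR), a call lost without TIGK 0 h B or TIGK 24 h B (log2 -0.45 and -0.46, adjusted p = 0.11 and 0.094, edgeR). RGMA also fell in HaCaT (log2 -0.53, adjusted p = 0.044, edgeR), a call lost in 9 of 27 alternatives (adjusted p up to 0.19, edgeR). With limma on log2(FPKM + 1) the HaCaT calls of BMPR2 and BMPR1B were lost (adjusted p = 0.052 and 0.20, limma).

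Among 11 measured extracellular antagonists and modulators, 1 rose and 2 fell in HaCaT, and 4 rose and 2 fell in TIGK. NOG, which binds BMPs and blocks them, rose in TIGK to 1.18 ± 0.498 against 0.306 ± 0.0407 CPM (SD, n = 3 each; log2 1.94, adjusted p = 0.0038, edgeR). FST, follistatin, fell in TIGK to 7.37 ± 2.54 against 14.8 ± 4.83 CPM (SD, n = 3 each; log2 -0.99, adjusted p = 0.00015, edgeR). TWSG1, a BMP-binding protein, rose in HaCaT (log2 0.50, adjusted p = 0.00027, edgeR) and in TIGK (log2 0.27, adjusted p = 0.029, edgeR). Its TIGK call was lost in 6 of 27 alternatives (adjusted p up to 0.13, edgeR). CRIM1, a membrane protein that binds BMPs, fell in HaCaT (log2 -0.46, adjusted p = 0.0015, edgeR) and rose in TIGK (log2 0.36, adjusted p = 0.011, edgeR). The TIGK call of CRIM1 was lost without TIGK 24 h A or TIGK 24 h B (log2 0.24 and 0.31, adjusted p = 0.10 and 0.054, edgeR). FSTL3, a follistatin-like protein, rose in TIGK (log2 0.32, adjusted p = 0.017, edgeR), a call lost without TIGK 0 h C, TIGK 24 h C, or the TIGK C libraries of 0 h and 6 h (log2 0.20, 0.26 and 0.20, adjusted p = 0.14, 0.075 and 0.063, edgeR). TLL1, a protease that cleaves the BMP antagonist chordin, fell in HaCaT, where its 3 libraries held 1 read at 24 h and 13 reads at 0 h in all (adjusted p = 0.020, edgeR). That call was lost without HaCaT 0 h B, HaCaT 24 h B or HaCaT 24 h C (adjusted p = 0.14, 0.072 and 0.076, edgeR), and with limma on log2(FPKM + 0.1) and log2(FPKM + 1) (adjusted p = 0.16 and 0.76, limma). Of the 3 measured other BMP-type ligands, 0 were called at 24 h in either line by edgeR, DESeq2 or limma, and 0 had an unadjusted p under 0.05 in edgeR. BMP8B was at log2 -0.11 in HaCaT and -0.33 in TIGK, GDF6 at 0.0051 in HaCaT and BMP8A at 0.53 in TIGK. Of the 3 E proteins, TCF3 fell in TIGK (log2 -0.23, adjusted p = 0.023, edgeR), a call lost without TIGK 0 h A, TIGK 0 h B, TIGK 24 h B or TIGK 24 h C (adjusted p = 0.068, 0.10, 0.080 and 0.060, edgeR), and with only the groups compared (adjusted p = 0.12, edgeR). In HaCaT 0 of the E proteins were called by edgeR, 2 had an unadjusted p under 0.05, and DESeq2 called 1, TCF4. Its change in HaCaT was log2 0.41 (adjusted p = 0.068, edgeR), or log2 0.43 with DESeq2 (adjusted p = 0.032, DESeq2). TCF3 stood in HaCaT at log2 -0.16 and TCF12 at 0.13.

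**Figure D5:**
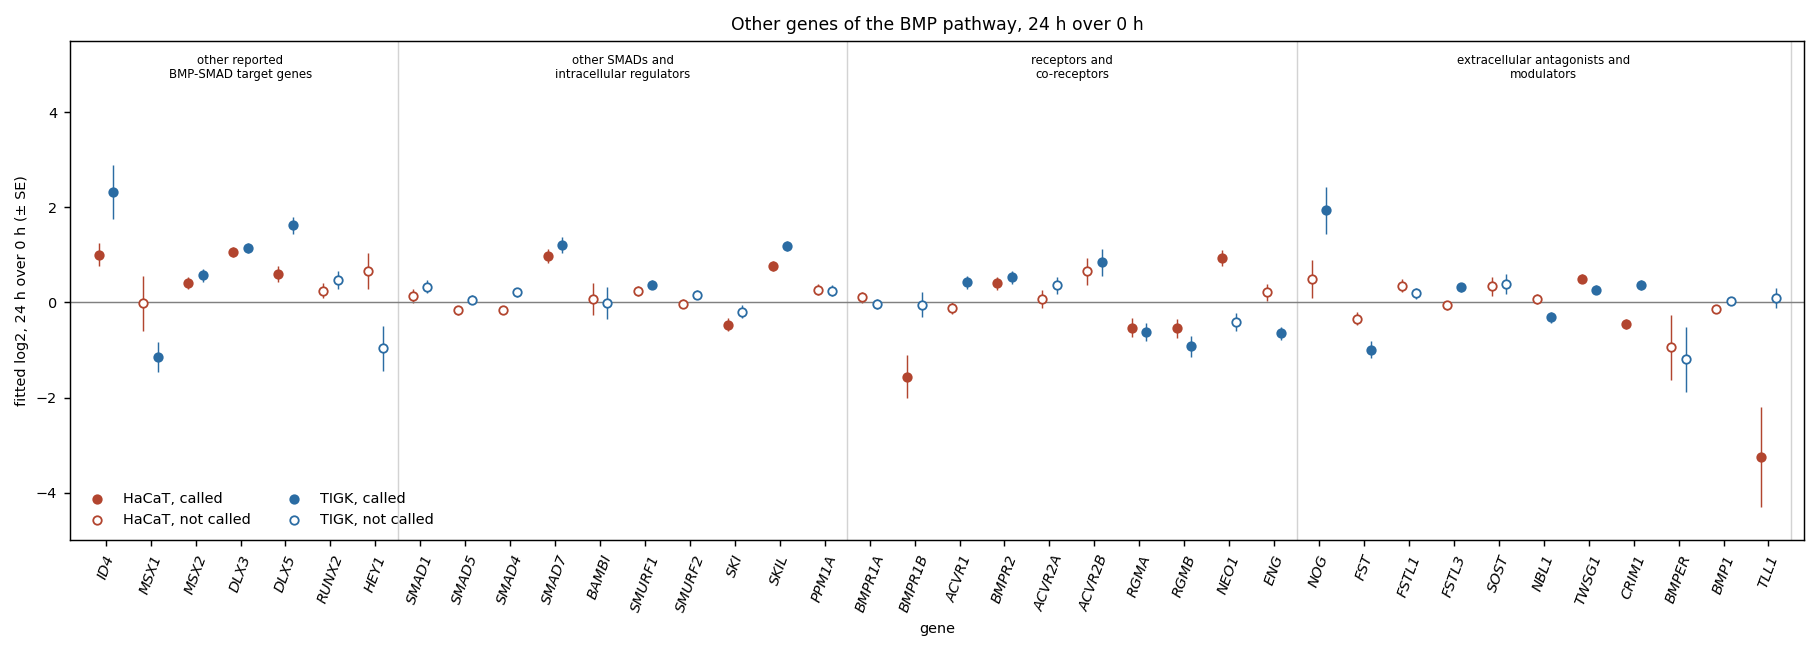
Fitted log2 fold change at 24 h over 0 h (y axis, ± SE) of the measured genes of 4 pathway lists (x axis), HaCaT in red and TIGK in blue; filled points passed edgeR at an adjusted p under 0.05 and open points did not. DLX3, DLX5, MSX2, ID4, SMAD7, SKIL, BMPR2 and TWSG1 are filled and above 0 in both lines.

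At 6 h over 0 h, 0 of the 44 pathway genes were called in HaCaT by edgeR, where 4 had an unadjusted p under 0.05, and DESeq2 called 1, FST. Of all genes tested in HaCaT, edgeR called 0.138% higher and 0.0632% lower. FST averaged 240 ± 3.95 CPM at 6 h and 161 ± 1.20 CPM at 0 h in HaCaT (SD, n = 3 each), without overlap of libraries. Its fitted change there was log2 0.58 (SE 0.14, adjusted p = 0.089, edgeR; log2 0.57, adjusted p = 0.022, DESeq2). Of the 2 genes with the highest mean CPM in each list over these HaCaT libraries, DLX3 stood at log2 -0.38 (SE 0.11, adjusted p = 0.17, edgeR), RUNX2 at 0.014, SMAD4 at -0.013, SKI at -0.075, BMPR1A at -0.031, BMPR2 at -0.0022, FSTL3 at -0.025, CRIM1 at 0.053, TCF3 at -0.030, TCF12 at -0.094, BMP8B at -0.16 and GDF6 at 0.22. FST is named for this comparison after its values were seen. In TIGK 4 rose, namely FST (log2 1.00, adjusted p = 0.00022, edgeR), SKIL (log2 0.94, adjusted p = 2.7e-06, edgeR), SMURF2, a ubiquitin ligase (log2 0.45, adjusted p = 0.0063, edgeR), and FSTL3 (log2 0.43, adjusted p = 0.012, edgeR). In TIGK 11 of the 44 had an unadjusted p under 0.05 in edgeR, and DESeq2 called 6, these 4 with SMAD7 and RUNX2. SMAD7 and RUNX2 stood at log2 0.56 and 0.58 with DESeq2 (adjusted p = 0.023 and 0.035, DESeq2). With edgeR they stood at log2 0.54 and 0.57 (adjusted p = 0.090 and 0.089, edgeR). Of all genes tested in TIGK, edgeR called 2.5% higher and 1.12% lower. FSTL3 lost its call without TIGK 0 h C, TIGK 6 h A or TIGK 6 h B (adjusted p = 0.097, 0.095 and 0.084, edgeR). With only the groups compared, the calls of FSTL3 and SMURF2 were lost (adjusted p = 0.12 and 0.051, edgeR).

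Before the scratch 23 of the 44 genes were higher in HaCaT and 9 were lower, beside the 29.3% and 33.3% of all genes given above. SMAD7 was higher in HaCaT, at 56.0 ± 3.92 against 9.93 ± 2.57 CPM in TIGK (SD, n = 3 each; log2 2.50, adjusted p = 2.2e-12, edgeR), as were SMAD4, the partner of the receptor-activated SMADs (log2 1.47, adjusted p = 3.9e-13, edgeR), SKIL and SMURF2 (log2 0.91 and 0.68, adjusted p = 5.8e-08 and 1.2e-06, edgeR). FST stood at 161 ± 1.20 CPM in HaCaT and 14.8 ± 4.83 CPM in TIGK (SD, n = 3 each; log2 3.45, adjusted p = 1.8e-15, edgeR), and FSTL3 was also higher in HaCaT (log2 1.68, adjusted p = 3.5e-13, edgeR). FSTL1 was lower (log2 -2.48, adjusted p = 3.3e-14, edgeR), as was TLL1, at 0.271 ± 0.197 CPM in HaCaT and 15.0 ± 2.89 CPM in TIGK (SD, n = 3 each). Of the receptors, ACVR1 and BMPR1A were higher in HaCaT (log2 1.09 and 0.65, adjusted p = 1.4e-07 and 1.4e-05, edgeR), and BMPR1B and ENG were lower (log2 -2.78 and -2.46, adjusted p = 3.4e-08 and 9.3e-13, edgeR). RUNX2, a transcription factor of bone formation, and DLX3 were higher in HaCaT (log2 1.76 and 1.09, adjusted p = 3.8e-09 and 3.5e-09, edgeR). ID4 was higher in HaCaT (9.36 ± 0.919 against 0.153 ± 0.154 CPM in TIGK; SD, n = 3 each; log2 5.89, adjusted p = 5.2e-12, edgeR) and MSX1 was lower (log2 -4.00, adjusted p = 5.9e-09, edgeR). BMP8B was lower in HaCaT (log2 -3.87, adjusted p = 6.5e-11, edgeR), at 1.60 ± 0.670 CPM against 23.5 ± 5.52 CPM in TIGK (SD, n = 3 each). It was lower also at 6 h and 24 h (log2 -3.91 and -3.65, adjusted p = 8.1e-11 and 3.3e-10, edgeR), and its reads may be shared with its near-identical copy BMP8A. All 3 E proteins were higher in HaCaT, TCF4 by log2 4.09, TCF3 by 0.67 and TCF12 by 0.23 (adjusted p = 6.2e-14, 3.6e-08 and 0.023, edgeR). The TCF12 call was lost without TIGK 0 h B or HaCaT 0 h A (adjusted p = 0.11 and 0.088, edgeR), and with no filter on low counts (adjusted p = 0.087, edgeR).

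Over the 18 libraries, the genes whose pattern came nearest to BMP6 among 13922 protein-coding genes other than the 10 were GPAT3, NTSR1, ATP8A2, ANXA10 and DHRS9, with root mean square differences of 0.751 to 0.870 in centred log2 CPM. GPAT3, an acyltransferase of triglyceride synthesis and the nearest, averaged 19.4, 25.5 and 4.20 CPM at 0 h, 6 h and 24 h in HaCaT and 26.7, 27.5 and 5.39 CPM in TIGK. Apart from ID3, at 0.178, and again leaving out the other 8, the genes nearest to ID1 were CDC25C, CERS3, DLGAP5, TRIM69 and CREBRF, at 0.284 to 0.360. CDC25C, a phosphatase of entry into mitosis, averaged 6.40, 5.72 and 15.6 CPM at these times in HaCaT and 3.75, 3.02 and 14.5 CPM in TIGK. These likenesses describe the libraries at hand, which share line and time.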

How the data were processed

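RNA from HaCaT and TIGK keratinocytes was sequenced in 18 libraries, 3 in each of 6 groups, from 1 µg of total RNA each per the labels. The submitters' processing notes name featureCounts 1.5.0-p3, HISAT2 2.0.5, StringTie 1.3.3b and the hg38 genome. The annotation release and strand setting are not given in the sources used here. The authors deposited whole read counts per gene, and FPKM, which equal count over gene length over 1 constant per column. Every column was matched to a group by line and time, and 0 columns were left unmapped. Nothing ties the column letters to the replicate numbers of the labels, and separate cultures are not mentioned, so a p-value here reflects library-to-library spread alone, possibly technical.

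Counts were tested with edgeR 4.0.16 (R 4.3.3). After filterByExpr, 17409 genes entered a quasi-likelihood fit of 6 group means with TMM scaling and 12 residual degrees of freedom. P-values are two-sided and adjusted by Benjamini-Hochberg over all genes tested, and genes were called under 0.05. CPM use TMM-scaled library sizes, folds a prior count of 0.125, and SE is the log2 fold change over the square root of F, an approximation. No 2 libraries held identical counts (0 of 153 pairs). The edgeR test was checked on simulated counts for HaCaT at 24 h over 0 h and for the lines at 0 h. The other comparisons, DESeq2 and limma were not checked in this way.

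The members, lists and tests were chosen with earlier results of these data known. All 10 members are named. Of each pathway list, up to 4 called genes with the lowest adjusted p per comparison are named. Where none was called, up to 2 of the highest CPM are named. MSX1 and TWSG1 in TIGK and RGMA and TCF4 in HaCaT, all at 24 h, lie outside this rule. So do FST in HaCaT and SMAD7 and RUNX2 in TIGK at 6 h. The 5 nearest genes were named for BMP6 and ID1. Promoter sequences came from RefSeq (GRCh38.p14). Windows were compared with GENCODE exons. Alternatives were RLE scaling, DESeq2 1.42.0, no filter, a filter of 1 CPM in 3 libraries, a fit to only the groups compared, a block by letter, limma 3.58.1 on log2 FPKM (pseudocount 0.1 or 1), and leaving out libraries.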

Additional observations from a re-analysis of the deposited data

Results flagged for a closer look

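BMP6 responded differently in the lines at 6 h: the interaction, HaCaT over TIGK, was log2 1.24 (adjusted p = 0.016, edgeR), with 3 of 3 HaCaT libraries of 6 h above those of 0 h. SKIL differed in the same test by log2 -0.96 (adjusted p = 0.0011, edgeR): it averaged 30.5 ± 1.18 CPM at 6 h and 30.8 ± 2.48 CPM at 0 h in HaCaT, and 31.6 ± 3.32 CPM at 6 h and 16.4 ± 1.14 CPM at 0 h in TIGK (SD, n = 3 each). SMAD7 differed by log2 -0.97 (adjusted p = 0.045, edgeR). It averaged 41.9 ± 2.88 CPM at 6 h and 56.0 ± 3.92 CPM at 0 h in HaCaT, and 14.6 ± 4.53 CPM at 6 h and 9.93 ± 2.57 CPM at 0 h in TIGK (SD, n = 3 each). The SMAD7 call was lost in 17 of 27 alternatives (adjusted p up to 0.18), among them each fit without 1 library of TIGK 0 h B, TIGK 0 h C, TIGK 6 h A, TIGK 6 h B, TIGK 24 h B or any HaCaT library (log2 -1.02 to -0.73).

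BMP7 at 24 h over 0 h was at log2 0.32 in HaCaT and -0.38 in TIGK, with every library of 24 h above those of 0 h in HaCaT and below them in TIGK. The difference between the lines was not tested, because the genes were chosen on this contrast.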

How the results depend on the processing

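Against the reported counts of called genes among the 10, 1 in TIGK at 6 h, 2 in HaCaT at 6 h and 1 in the interaction, alternatives gave other counts. In TIGK they were 3 with DESeq2, 4 with no filter, 2 without the TIGK C libraries at 0 h and 6 h, 2 with the replicate block, and 1 to 2 when 1 library was left out, where BMP2 passed without TIGK 6 h A (log2 -0.64, adjusted p = 0.049, edgeR). In HaCaT they were 5 with no filter, 0 with limma on log2(FPKM + 0.1), 4 with only the groups compared, and 0 to 2 when 1 library was left out. In the interaction they were 0 with limma on log2(FPKM + 0.1) and 0 to 1 when 1 library was left out. The causes were not tested, except that limma on log2(FPKM + 1) shrinks low genes by construction: the 24 h median was then 0.85 in HaCaT and 0.82 in TIGK. BMP6 at 24 h was then at log2 -1.86 in HaCaT and -1.96 in TIGK, and in TIGK ID2 was at 1.68 and SMAD6 at 1.44. The median difference between lines at 24 h (0.32) was 0.22 to 0.52 when 1 library was left out, the highest without TIGK 24 h A.

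Signs turned only for values without a call. With 1 library left out, BMP4 in HaCaT at 6 h was -0.17 to 0.046, SMAD9 in TIGK at 6 h -0.22 to 0.31, and ID1 between lines at 24 h -0.20 to 0.046. In the interaction BMP7 was -0.13 to 0.031, ID2 -0.32 to 0.048, ID3 -0.097 to 0.11, SMAD6 -0.33 to 0.12 and ATOH8 -0.76 to 0.89. SMAD9 in TIGK was -0.0074 with no filter, ID3 in the interaction -0.049 without the TIGK C libraries, and ATOH8 there 0.29 and 0.052 with limma at pseudocounts 0.1 and 1. Deviations of same-letter libraries correlated over 0.1 in 2 of 18 pairs (-0.025 to 0.39). The highest values were those of TIGK 0 h with TIGK 6 h, at 0.105, 0.094 and 0.39 for letters A, B and C. Pairs of different letters were not computed, so whether letters pair the libraries was not tested. With the replicate block by letter, the ATOH8 call between lines at 0 h was lost (log2 -1.59, adjusted p = 0.060, edgeR) and SMAD6 in TIGK at 6 h gained one (log2 -0.59, adjusted p = 0.026, edgeR), and TCF12 lost its call between lines at 0 h (log2 0.13, adjusted p = 0.33, edgeR). All-gene calls in HaCaT at 6 h were 35 in the fit reported, 104 with DESeq2, 130 with no filter, 70 with the replicate block, 77 without the TIGK C libraries, 18 with limma on log2(FPKM + 0.1), 200 with only the groups compared and 4 (without HaCaT 0 h B) to 47 with 1 library left out. In TIGK at 6 h they were 630, against 786 with the replicate block, 359 with only the groups compared and 350 (without TIGK 6 h B) to 817 with 1 library left out. In the interaction they were 131 in the fit reported, 290 with DESeq2, 293 with no filter, 212 with the replicate block, 86 with limma on log2(FPKM + 0.1), and 68 (without TIGK 6 h B) to 260 (without TIGK 6 h C) with 1 library left out. Depth limits ATOH8 (5 reads in HaCaT and 16 in TIGK over 3 libraries at 6 h), SMAD9 in HaCaT (33 at 6 h) and BMP6 at 24 h (40 in HaCaT and 42 in TIGK).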
